A study of Mus musculus with 6 samples.

Results

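The 36 genes described here encode the machinery that folds and quality-controls proteins in the endoplasmic reticulum (ER), together with the sensors of the unfolded protein response. They were chosen by gene symbol from a list of 4 sensor-pathway genes, 13 chaperones and co-chaperones, 7 disulfide enzymes, 3 translocon genes and 9 genes of ER-associated degradation (ERAD). All 36 were among the 18193 genes measured. Signals came from 6 Affymetrix arrays of Ba/F3 cells, a mouse interleukin-3-dependent haematopoietic line of BALB/c background grown with WEHI-3 supernatant. Every sample carried a retrovirally transduced, Tet-on PAX5-KIDINS220 fusion. The 3 Dox(+) samples received 500 ng/mL doxycycline for 24 h, which switches the fusion on, and the 3 Dox(-) samples received none. The study asked what the fusion does to pathways in these cells. Since doxycycline was given to every Dox(+) sample and to no Dox(-) sample, the drug and the fusion cannot be told apart, and the labels leave unstated whether the transduced cells were 1 clone and whether replicates came from separate cultures. P-values therefore reflect variation among these 6 arrays, part of which can be technical.

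Secretory and membrane proteins enter the ER through the Sec61 channel and fold there with the help of the Hsp70 chaperone BiP, the lectins calnexin and calreticulin and the protein disulfide isomerases. When unfolded proteins accumulate, the sensors IRE1, PERK and ATF6 act: IRE1 splices the mRNA of XBP1, PERK slows translation and raises ATF4, and cleaved ATF6 moves to the nucleus. XBP1 and ATF6 then raise genes of chaperones and of ERAD, which returns misfolded proteins to the cytosol for destruction by the proteasome. In the B lineage this response is known above all from plasma cells. The probe sets used here do not separate spliced from unspliced Xbp1, and protein cleavage or phosphorylation is not seen by an array.

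The arrays were grouped by the start of the codes in their titles into a 4-array set (2 Dox(+), 2 Dox(-)) and a 2-array set (1 Dox(+), 1 Dox(-)). What the codes mark is not stated. Each array had a trimmed mean signal of 500, its median signal was between 56.3 and 65.6, and the 3' to 5' ratio of the Gapdh control probe sets was between 0.637 and 0.688. Within the 4-array set the codes of the Dox(+) arrays precede those of the Dox(-) arrays, so array order and treatment cannot be told apart there. For Pax5, probe set 1421765_at gave 94.2 to 119 in Dox(+) and 3.76 to 20.3 in Dox(-) arrays, while 1454401_at gave 48.1 to 133 in Dox(+) and 23.9 to 92.0 in Dox(-) arrays, which overlapped. Whether either reads the transduced fusion is not known here. Of the markers of an interleukin-3-dependent haematopoietic line, Ptprc, Csf2rb, Csf2rb2 and Cd44 were bright, Il3ra was lower (317 to 898 in Dox(+) and 296 to 827 in Dox(-) arrays) and Kit was dim. Except for Kit, each of these markers was lower in both arrays of the 2-array set than in any array of the 4-array set. Cd44 had 2879 in the Dox(+) and 2825 in the Dox(-) array of the 2-array set, against 10127 to 11284 in the 4-array set. The median log2 difference of the 6 markers between the sets was 1.31. The early B-lineage markers were dim except Cd79b, and the 6 measured plasma cell markers summed to 194 to 1516 in Dox(+) and 186 to 733 in Dox(-) arrays. In the 4-array set most of the sum came from Ighm, and in the 2-array set little of it did. Ighm had 12.9, 1360 and 1385 in Dox(+) and 11.3, 455 and 534 in Dox(-) arrays, whereas Sdc1, Prdm1, Irf4, Jchain and Tnfrsf17 stayed under 70 in every array.

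The promoters show what part of the list shares with respect to the stress-responsive factors. The letters of the ER stress response element (ERSE, which is CCAAT and CCACG with 9 bases of any kind between them), of ERSE-II (ATTGG and CCACG with 1 base between them) and of the unfolded protein response element (UPRE, TGACGTGG) were searched on both strands of the 250 bases before each annotated start in RefSeq promoters (GRCm38.p6). The reverse complement of UPRE begins with the last 5 letters of ERSE, so those motifs can overlap, but no member held 2 different ones. Of the 36 genes 30 matched the promoter table; Atf6, Hyou1, Manf, Mzb1, Sec61a1 and Derl1 did not. An ERSE stood in 10 of the 30 (33.3%), against 35 of all 27025 genes with a promoter (0.13%). Those 35 include the 10, and the list was itself drawn up from genes of this pathway. The shares are therefore descriptions, with no test. An ERSE-II stood in Herpud1 alone (10 of all genes, 0.037%), and a UPRE in Txndc11 alone (163 of all genes, 0.603%). The 12 genes are shown because they carry the elements for which this pathway is known; each line holds the motif, in capitals, with 12 bases on either side, 5′ to 3′ on the strand of the gene.
Hspa5, chr2:34772013-34772055, plus strand: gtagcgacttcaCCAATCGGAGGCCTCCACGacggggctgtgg
Hsp90b1, chr10:86705521-86705668, minus strand: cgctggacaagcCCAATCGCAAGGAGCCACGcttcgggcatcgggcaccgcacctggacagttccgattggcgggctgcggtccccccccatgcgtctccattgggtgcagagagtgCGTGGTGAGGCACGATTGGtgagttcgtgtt
Calr, chr8:84847063-84847105, minus strand: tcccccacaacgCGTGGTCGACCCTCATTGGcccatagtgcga
Canx, chr11:50325788-50325830, minus strand: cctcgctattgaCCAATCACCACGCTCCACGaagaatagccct
Dnajc3, chr14:118937815-118937857, plus strand: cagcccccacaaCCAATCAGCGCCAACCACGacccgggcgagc
Creld2, chr15:88819508-88819550, plus strand: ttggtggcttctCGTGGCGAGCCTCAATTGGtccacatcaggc
Pdia6, chr12:17266479-17266521, plus strand: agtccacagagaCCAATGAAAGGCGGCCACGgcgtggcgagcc
Ero1b, chr13:12565670-12565712, plus strand: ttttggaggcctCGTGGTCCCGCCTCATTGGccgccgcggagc
Syvn1, chr19:6046520-6046562, plus strand: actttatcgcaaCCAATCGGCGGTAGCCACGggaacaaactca
Derl3, chr10:75893230-75893272, plus strand: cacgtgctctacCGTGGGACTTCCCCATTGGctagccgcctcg
Herpud1, chr8:94386365-94386399, plus strand: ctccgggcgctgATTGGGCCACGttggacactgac
Txndc11, chr16:11134615-11134646, minus strand: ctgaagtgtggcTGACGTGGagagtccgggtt

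Hsp90b1 held 2 ERSE matches, 1 on each strand, and the other members with a motif held 1. The ERSE of Hspa5, the gene of BiP, lay 65 to 47 bases before the start. Ero1a, whose signal differed most clearly with doxycycline in the 4-array set, held none of the motifs; this says only that those letters are not in its 250 bases. The 250 bases before the starts of Hspa5 (chr2:34771840-34772089, plus strand) and of Ero1a (chr14:45318573-45318822, minus strand) are given as the longer context of a promoter with and without a match.
Hspa5: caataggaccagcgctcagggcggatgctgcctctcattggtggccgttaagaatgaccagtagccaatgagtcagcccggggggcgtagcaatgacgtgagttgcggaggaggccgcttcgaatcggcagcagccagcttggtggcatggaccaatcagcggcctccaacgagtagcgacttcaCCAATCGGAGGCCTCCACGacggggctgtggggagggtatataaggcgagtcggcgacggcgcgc
Ero1a: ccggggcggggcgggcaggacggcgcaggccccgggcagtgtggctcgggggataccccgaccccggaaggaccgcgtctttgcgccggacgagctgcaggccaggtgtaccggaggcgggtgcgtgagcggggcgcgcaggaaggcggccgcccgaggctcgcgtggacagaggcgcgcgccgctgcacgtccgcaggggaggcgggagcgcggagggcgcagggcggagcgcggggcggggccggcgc

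**Figure D1:**
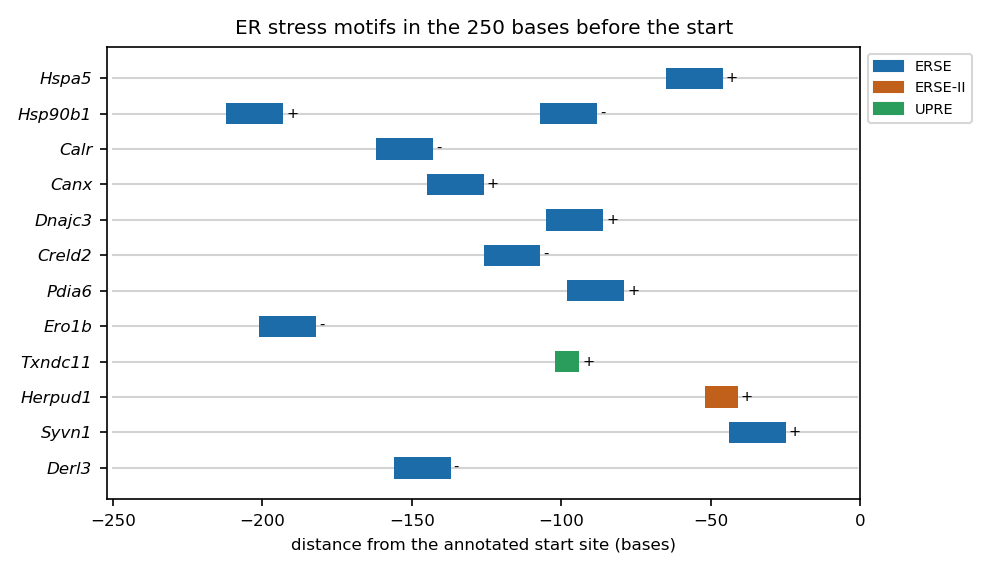
Position of each ERSE, ERSE-II and UPRE match (bars) in the 250 bases before the annotated start of the 12 members that hold one; the x axis gives the distance from the start in bases and the sign beside a bar the strand of the match relative to the gene. The ERSE matches lie between 212 and 26 bases before the start.

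No member passed the test for doxycycline when both array sets were used. The fit was limma on log2(signal + 16) over all 18193 genes with the array set as a block, with a Benjamini-Hochberg adjusted p under 0.05 as the threshold. Over all genes 0.148% were called higher and 0.0495% lower, and among the 36 members 0 and 0. At an unadjusted p under 0.05, 5 members were higher (background 5.82%) and 0 lower (background 5.26%). Of the 36 log2 differences 25 were positive, with a median of 0.07, against 9224 of 18193 and a median of 0.0037 over all genes. In 32 members the 95% interval of the fold change lay within 1.5-fold in either direction; Fkbp11, Ero1a, Mzb1 and Derl3 were the exceptions. Of the 36, 29 were positive in the 4-array set alone (median 0.09, against -0.0016 over all genes), where 8 were higher at an unadjusted p under 0.05 (background 6.67%) and 0 lower (background 6.34%). The single ratio of the 2-array set was positive for 21 (median 0.017, against 0.015).

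**Figure D2:**
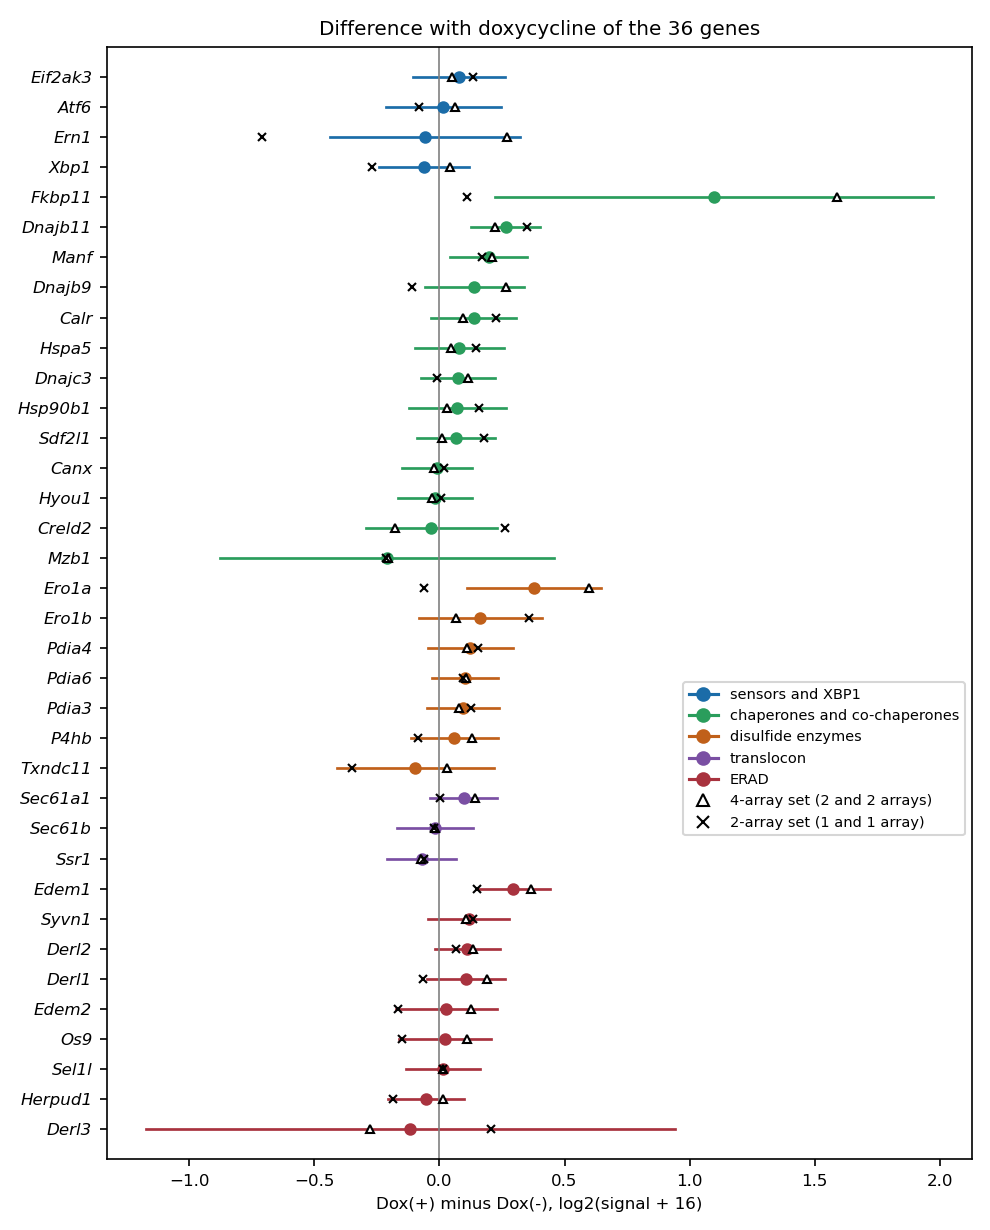
Difference with doxycycline of the 36 genes, as Dox(+) minus Dox(-) on the log2(signal + 16) scale (x axis), by role. Filled points with bars are the limma estimates and 95% intervals of the fit with the array-set block over 6 arrays, triangles the 4-array set and crosses the 2-array set. Most estimates lie near 0, Fkbp11 stands at 1.10, and for Ern1 and Ero1a the sets lie apart.

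The sensors showed no common direction with the block, where 2 of the 4 differences were positive. In the 4-array set all 4 were positive (0.04 to 0.27, median 0.06), and in the 2-array set 1 was. Ern1, which encodes the kinase and nuclease IRE1, had signals of 687, 2252 and 2207 in Dox(+) arrays, against 1135, 1918 and 1779 in Dox(-) arrays, the first value of each group being the 2-array set. The Dox(+) array was the lower one in the 2-array set, whereas in the 4-array set both Dox(+) arrays lay above both Dox(-) arrays. The log2 difference was 0.27 (SE 0.07) in the larger set, -0.71 in the smaller one and -0.06 (SE 0.17) with the block. A limma test of the difference between the sets gave 0.98 (SE 0.12), the smallest p among the members and rank 13 of 18193, with an adjusted p of 0.14, so it did not pass. Over all genes 0% passed that test in either direction. At an unadjusted p under 0.05, 4 members had the higher value in the 4-array set (Ern1, Ero1a, Dnajb9 and Xbp1; background 3.52%) and 0 the lower (background 3.2%). The dimmer Ern1 probe sets 1421240_at and 1438583_at differed by -0.46 and -0.57 with the block, and the still dimmer 1450176_at and 1431886_at by 0.26 and 0.30. In the 4-array set 1438583_at had 98.5 and 104 in Dox(+) and 113 and 157 in Dox(-) arrays, so it was lower where the brightest probe set was higher.

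Eif2ak3, the gene of PERK, had signals of 773, 989 and 859 in Dox(+) and 702, 879 and 902 in Dox(-) arrays, and its log2 difference was 0.08 (SE 0.08). Atf6, the membrane-bound factor that is activated by cleavage, had 612, 580 and 508 in Dox(+) and 649, 486 and 553 in Dox(-) arrays, with a difference of 0.02 (SE 0.10). For both genes the groups overlapped. Xbp1, the factor whose mRNA is spliced by IRE1, had 10628, 9869 and 9046 in Dox(+) and 12816, 9161 and 9180 in Dox(-) arrays, a difference of -0.06 (SE 0.08). Its values in the 4-array set overlapped, and the fold change with the block was 0.958 (95% interval 0.845 to 1.09, limma adjusted p 0.84).

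Of the 13 chaperones and co-chaperones 9 had positive differences (median 0.07), and 3 had an unadjusted p under 0.05, namely Dnajb11, Manf and Fkbp11. Hspa5, the gene of the Hsp70 chaperone BiP, had signals of 12711, 9235 and 10287 in Dox(+) and 11473, 10162 and 8764 in Dox(-) arrays. The groups overlapped in the 4-array set, and the fold change was 1.06 (95% interval 0.934 to 1.20, limma adjusted p 0.78). Dnajb11, an ER-resident Hsp40 co-chaperone of BiP, had 2227, 1588 and 1570 in Dox(+) and 1746, 1368 and 1335 in Dox(-) arrays. It was higher with doxycycline within each set, by 0.22 (SE 0.07) in the larger and 0.35 in the smaller, but did not pass (1.20-fold, 95% interval 1.09 to 1.32, limma adjusted p 0.15). Manf, a secreted and ER-resident protein known to be raised by ER stress, had 5006, 5008 and 4390 in Dox(+) and 4452, 4217 and 3890 in Dox(-) arrays. It too was higher within each set (0.21 in the larger, 0.17 in the smaller), a 1.15-fold difference with a limma adjusted p of 0.32.

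Calr, which encodes calreticulin, a calcium-binding lectin chaperone, had 14217, 13141 and 13210 in Dox(+) and 12166, 13241 and 11506 in Dox(-) arrays. In the 4-array set 1 Dox(-) array lay above both Dox(+) arrays, and the difference was 0.14 (SE 0.08). Its other probe sets, 1456170_x_at and 1433806_x_at, differed by 0.23 and 0.25 (limma adjusted p over all probe sets 0.28 and 0.24). Fkbp11, a peptidyl-prolyl isomerase of secretory cells, had the highest log2 difference of the members, 1.10 (SE 0.39, limma adjusted p 0.33). Its signals were 16.9, 64.8 and 59.5 in Dox(+) and 14.4, 12.5 and 7.66 in Dox(-) arrays. The groups did not overlap, but the signals were near or under the median of all probe sets, and in the 2-array set the ratio was only 0.11. The other 2 Fkbp11 probe sets differed by 0.23 and 0.87, and the gene was 1 of 2 members whose Dox(+) arrays all lay above the Dox(-) arrays; over all genes 3.84% did so, and 3.06% the other way, as 0 members did.

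The remaining chaperones lay between -0.21 and 0.14. Dnajb9, the BiP co-chaperone ERdj4 and a known XBP1 target, had 1188, 2968 and 2937 in Dox(+) and 1285, 2315 and 2603 in Dox(-) arrays. As for Ern1, the Dox(+) arrays had the higher values in the 4-array set (0.26, SE 0.07, limma adjusted p 0.20) but the lower value in the other (-0.11). Creld2 went the other way, with -0.18 in the larger set and 0.26 in the smaller. Hsp90b1, the ER Hsp90 protein GRP94, was at 0.07 (SE 0.09), Dnajc3, a co-chaperone that restrains PERK, at 0.07 (SE 0.07), and Sdf2l1, found in complexes of BiP and its co-chaperones, at 0.07 (SE 0.07). Canx, which encodes the lectin chaperone calnexin, was at -0.01 (SE 0.06), and Hyou1, the nucleotide exchange factor of BiP, at -0.02 (SE 0.06). Mzb1, known from marginal zone B cells and plasma cells, was dim, with 55.5 to 78.3 in Dox(+) and 63.1 to 94.7 in Dox(-) arrays. Its difference of -0.21 had an SE of 0.29.

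**Figure D3:**
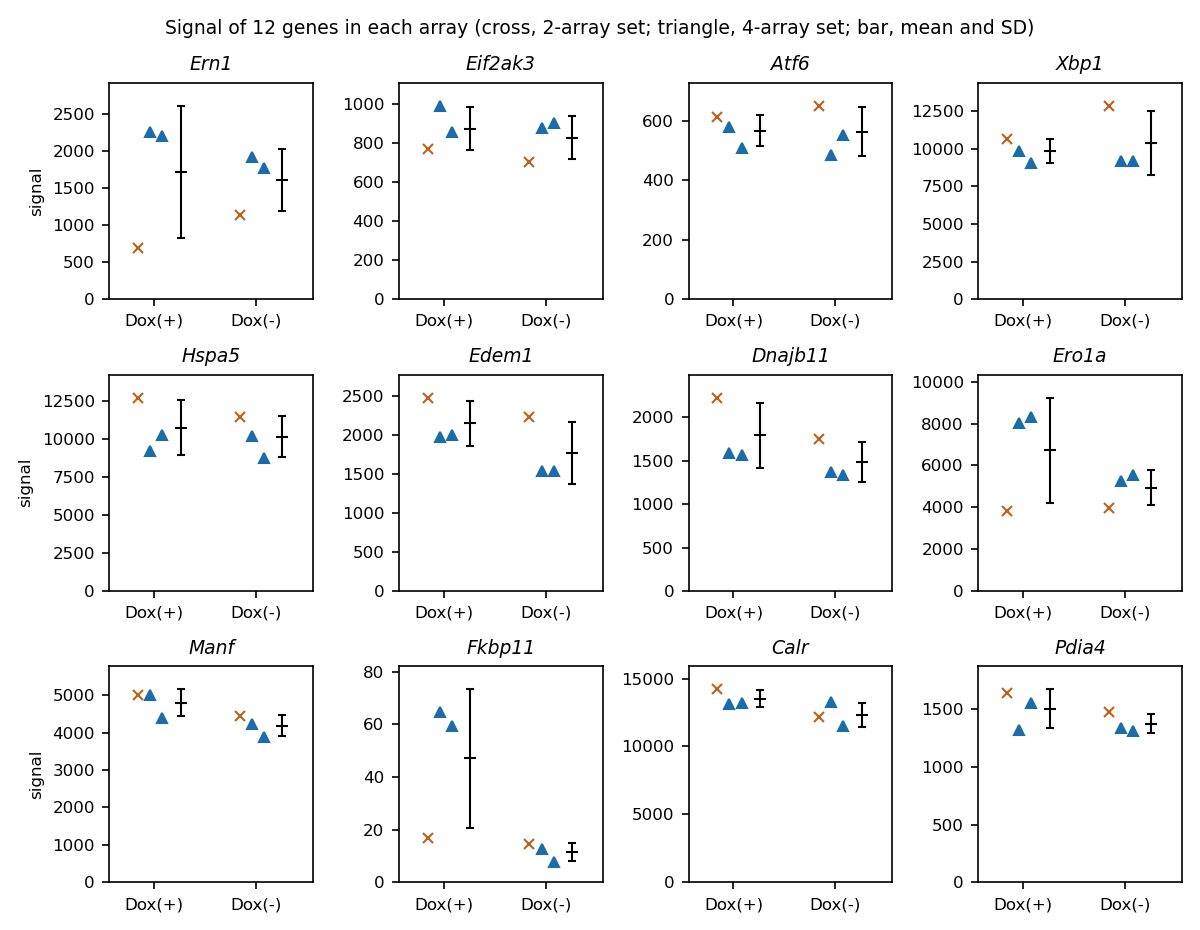
Signals of the 12 genes described by array, with Dox(+) left of Dox(-) in each panel; crosses are the 2-array set, triangles the 4-array set, and the bar to the right of each group its mean and SD (n = 3). Ero1a and Edem1 are higher in the Dox(+) triangles than in the Dox(-) triangles, while the crosses of Ero1a lie together at 3820 and 3984.

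Among the 7 disulfide enzymes Ero1a stood apart (listed under its older symbol Ero1l). It encodes an oxidase that hands oxidizing equivalents to protein disulfide isomerase. Its signals were 3820, 8024 and 8317 in Dox(+) arrays, against 3984, 5236 and 5559 in Dox(-) arrays. Both Dox(+) arrays of the 4-array set were well above both of its Dox(-) arrays, and in the 2-array set the values were nearly equal. Ero1a rose in the 4-array set alone by 0.60 on the log2 scale (1.51-fold, SE 0.07, limma adjusted p 0.029, rank 31 of 18193), the only member among the 0.302% of genes called higher there; 0 members were lower (background 0.11%). Leaving out any 1 of the 4 arrays left 1 array in a group, so whether the call would hold cannot be judged that way. Ighm, listed above with plasma cell markers whose other measured genes were dim, also passed in the 4-array set (1.45, limma adjusted p 0.0059). Its part in the Ero1a result was not tested. The ratio in the 2-array set was -0.06, the estimate with the block 0.38 (SE 0.12, limma adjusted p 0.27), and the interaction between doxycycline and set 0.66 (SE 0.12, limma adjusted p 0.34). The other Ero1a probe sets, 1419029_at and 1419030_at, differed by 0.45 and 0.49 with the block. The signals of 1419030_at were 1745, 3686 and 4581 in Dox(+) and 1779, 2405 and 2467 in Dox(-) arrays, so the same split between the sets was seen.

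Ero1b, the paralog of Ero1a, was at 0.16 (SE 0.11), with 0.07 in the larger set and 0.36 in the smaller. Pdia4, a protein disulfide isomerase with several active sites, had 1643, 1319 and 1557 in Dox(+) and 1475, 1341 and 1315 in Dox(-) arrays. These overlapped in the 4-array set, and the difference was 0.12 (SE 0.07, limma adjusted p 0.60). Pdia3, the isomerase that works with calnexin and calreticulin, was at 0.09 (SE 0.06) and Pdia6, which acts with BiP, at 0.10 (SE 0.06). P4hb, protein disulfide isomerase itself, was at 0.06 (SE 0.08), and Txndc11, a thioredoxin-domain protein of the ER, at -0.10 (SE 0.14). All 7 disulfide enzyme differences were positive in the 4-array set (median 0.11), and 6 of 7 with the block (median 0.10).

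The 3 translocon genes differed little. Sec61a1, the pore subunit of the channel, was at 0.10 (SE 0.06), Sec61b, its small subunit, at -0.02 (SE 0.07) and Ssr1, a subunit of the translocon-associated TRAP complex, at -0.07 (SE 0.06). The fold changes had 95% intervals of 0.975 to 1.17, 0.889 to 1.10 and 0.866 to 1.05. Sec61b had 13456, 13356 and 13810 in Dox(+) and 13660, 14352 and 13130 in Dox(-) arrays.

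Of the 9 ERAD genes 7 had positive differences (median 0.03), and Edem1 was the 1 with an unadjusted p under 0.05. Edem1 encodes a lectin-like protein that directs misfolded glycoproteins to degradation. Its signals were 2484, 1980 and 1998 in Dox(+) and 2237, 1540 and 1537 in Dox(-) arrays. It was higher within each set, by 0.37 in the larger (SE 0.06, limma adjusted p 0.077) and 0.15 in the smaller. With the block it was 1.23-fold higher (95% interval 1.11 to 1.36, limma adjusted p 0.14), the smallest p of the members, at rank 189 of 18193. Its second probe set, 1451218_at, gave 0.41 (SE 0.08, limma adjusted p over all probe sets 0.16), with 1214, 1717 and 1780 in Dox(+) and 1021, 1317 and 1169 in Dox(-) arrays. Neither probe set passed.

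Syvn1, the ERAD ubiquitin ligase HRD1, was with Fkbp11 the other member without overlap. It had 1077, 1091 and 1221 in Dox(+) and 981, 1069 and 1070 in Dox(-) arrays, a difference of 0.12 (SE 0.07). The lowest Dox(+) signal exceeded the highest Dox(-) signal only narrowly, and the second probe set was at -0.0055. Sel1l, the partner of HRD1, was at 0.01 (SE 0.07), and Herpud1, a stress-induced scaffold of the HRD1 complex, at -0.05 (SE 0.07). The other Herpud1 probe set, 1435626_a_at, was at 0.12 (SE 0.06). Those of Sel1l ran from -0.10 to 0.64, the highest by the dimmest, 1453559_a_at, and none of these passed. Of the derlins, which form part of the path out of the ER, Derl2 was at 0.11 (SE 0.06) and Derl1 at 0.11 (SE 0.07). Derl3 was dim, with 22.1 to 116 in Dox(+) and 46.2 to 81.8 in Dox(-) arrays. Edem2 (0.03, SE 0.09) and Os9, a lectin of the HRD1 complex (0.02, SE 0.08), did not pass. Of the 36 members, 14 had both Dox(+) arrays above both Dox(-) arrays in the 4-array set (background 21.6%), and 0 had them below (background 20.9%).

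The 10 members with an ERSE had a median difference of 0.08 with the block and the 18 with none of the motifs 0.07. Their medians in the 4-array set were 0.06 and 0.12. These are descriptions, with no test.

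Other genes of the pathway likewise held no call with the block. Of 20 further ER folding and glycosylation genes 11 were positive, of 17 measured translocation and signal peptide genes 9, of 17 measured further ERAD genes 14, of 8 genes of the PERK, ATF4 and CHOP arm 4, and of 7 other stress factors and ATF6 proteases 4. Their medians were 0.03, 0.02, 0.05, -0.02 and 0.02. At an unadjusted p under 0.05, limma had 1 higher and 1 lower in the folding list, 2 higher in the translocation list and 5 higher in the ERAD list. It had 1 higher in the PERK arm and 1 lower among the stress factors and proteases. Over all genes 5.82% were higher and 5.26% lower at that threshold, and the lists were not tested as sets. Among those with the smallest p were Ubxn4, an ER-anchored ERAD factor (0.21, SE 0.06), Edem3, a mannosidase-like ERAD gene (0.23, SE 0.08), Sil1, a nucleotide exchange factor of BiP (0.29, SE 0.09), and Rpn1, a subunit of oligosaccharyltransferase (-0.16, SE 0.07). Mbtps2, the intramembrane protease that releases ATF6, was at -0.20 (SE 0.06), while Mbtps1, the protease that cuts ATF6 first, was at 0.09 (SE 0.06). Ddit3, the gene of CHOP, was at 0.25 (SE 0.10), with 440, 552 and 525 in Dox(+) and 385, 435 and 447 in Dox(-) arrays. Asns, an ATF4 target, was at -0.18 (SE 0.09). Sec11c, of the signal peptidase (0.20, SE 0.08), and Srp14, of the signal recognition particle (0.15, SE 0.06), complete the genes named by rank. Their limma adjusted p ran from 0.23 (Ubxn4) to 0.66 (Mbtps1).

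More members differed between the array sets than between the treatments. At equal treatment, 12 members had higher and 13 had lower signals in the larger set (limma, adjusted p under 0.05), against 17.3% and 16.3% of all genes. With each array centred on its median, every gene moved by -0.18 on the log2 scale, and 8 members were higher and 16 lower (2281 and 3863 of all genes); no called member turned its sign. Over the 17 settings compared, 6 members were called higher in every one (Ern1, Dnajb9, Dnajc3, Ero1a, Sel1l and Os9) and 5 lower in every one (Hyou1, Dnajb11, Sdf2l1, Creld2 and Ssr1). Since bright genes are called more often, the closer comparison is with the 4609 genes of at least 1000 mean signal, of which 36% were higher and 37.2% lower (73.2% in all); of the 28 members at that level 10 were higher and 12 lower. The members therefore differed between the sets about as often as other bright genes. The limit of 1000 and the genes named in this and the next paragraph were chosen after their values were seen. The sensors split: Ern1 was 2.27-fold higher in the 4-array set (1779 to 2252, against 687 to 1135 in the 2-array set; limma adjusted p 5.9e-04) and Eif2ak3 1.23-fold higher (0.026), a call made in 8 of the 17 settings and lost under quantile normalization and median centring. Xbp1 was at 0.798 of its level in the 2-array set (0.014), and Atf6 did not pass (0.13), though it was called lower in 2 settings, median centring and the mean of all probe sets. The dimmer Atf6 probe sets 1456021_at and 1453288_at did pass as lower. Their log2 differences were -0.54 and -0.70 (limma adjusted p over all probe sets 0.040 and 0.039).

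The chaperones split too. Dnajb9 was 2.16-fold higher in the 4-array set, with 2315 to 2968 against 1188 to 1285 in the 2-array set (limma adjusted p 1.6e-05). Hyou1 was at 0.539, with 968 to 1043 in the 4-array set against 1894 to 1902 in the 2-array set (1.0e-05), and Creld2 at 0.549 (4.3e-04). Hspa5 was at 0.794 and Sdf2l1 at 0.719, whereas Hsp90b1 was at 1.39 and Canx at 1.28. For Hspa5 and Hsp90b1 the next brightest probe sets, 1427464_s_at and 1438040_a_at, had log2 differences of only 0.07 and 0.04. Neither passed (limma adjusted p over all probe sets 0.54 and 0.71). The dimmest Hspa5 probe set, 1447824_x_at, was at -0.43 (0.063), and Canx 1422845_at was at 0.46 (3.6e-04). Of the disulfide enzymes Ero1a (1.70) and Ero1b (1.36) were higher and Pdia3, Pdia6 and P4hb lower (0.816 to 0.845). Of the other Ero1a probe sets, 1419030_at passed too (log2 difference 0.84, limma adjusted p over all probe sets 0.0034). The brighter 1419029_at did not (0.30, limma adjusted p 0.16). The call of P4hb (limma adjusted p 0.047) was made in 7 of the 17 settings and lost under quantile normalization. Of the ERAD genes Os9, Edem2, Sel1l and Derl1 were higher (1.29 to 1.51) and Herpud1, Edem1 and Derl2 lower (0.744 to 0.782). The calls of Canx, Ero1b and Derl1 were lost under median centring. In the ATF4 arm, Atf4 had 3876 to 4302 in the 4-array set, against 13353 and 13675 in the 2-array set, a log2 difference of -1.75 (limma adjusted p 2.0e-07). Trib3, an ATF4 and CHOP target, was at -3.30 and Asns at -1.91. These 3 were the only ones called lower among the 8 genes of the PERK, ATF4 and CHOP arm (background 16.3%). Ppp1r15b was the 1 called higher (0.32, limma adjusted p 0.0031, background 17.3%). Ddit3, the gene of CHOP, was at 0.23 and did not pass (limma adjusted p 0.13).

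Probe sets of 1 gene did not always give the same difference between the sets. Of the 20 members with more than 1 probe set of at least 100 mean signal, 12 had the same sign in all of them, and in 4 (Dnajc3, Edem1, Derl1 and Derl2) probe sets passed in opposite directions. Edem1 was at -0.43 by 1424065_at and 0.40 by 1451218_at, and Derl1 at 0.37, -0.43 and -0.38 by the 3 of its probe sets that passed. For doxycycline 7 of the 20 had the same sign in all such probe sets.

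**Figure D4:**
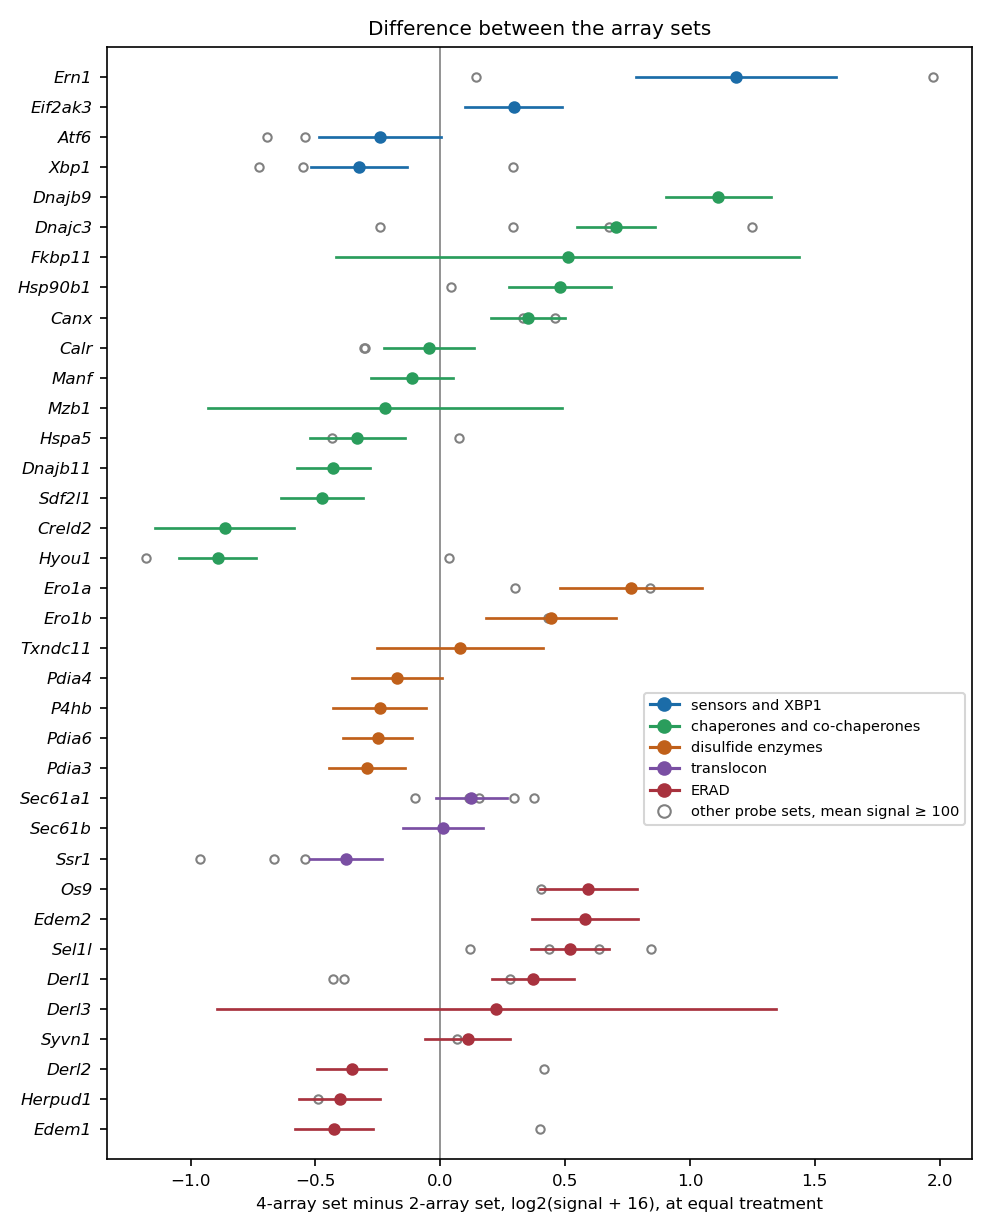
Difference between the array sets at equal treatment for the 36 genes, as 4-array minus 2-array set on the log2(signal + 16) scale (x axis), with limma estimates and 95% intervals (filled points and bars, 6 arrays). Open circles are the other probe sets of a gene with a mean signal of at least 100; Ern1 and Dnajb9 are the highest, Hyou1 and Creld2 the lowest, and the probe sets of Edem1, Derl1, Derl2 and Dnajc3 are among those that lie on both sides of 0.

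Fewer cells with a given mRNA and less of it per cell cannot be told apart in these bulk samples, and as every array was scaled to the same mean, a change of total mRNA would not be seen.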

How the data were processed

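The deposited values are linear signal intensities per probe set, which the authors computed in Expression Console (Affymetrix), per the submitters' processing notes. A version and summarisation method are not stated in the labels used here. In the deposited values, each array has the same mean of 500 after trimming 2% at each end. Of 45101 probe sets, 64 controls, 932 with several symbols and 9160 not listed in the platform annotation were left out, and each of 18193 genes was represented by its probe set with the highest mean (Ero1l and Ero1lb under the current symbols Ero1a and Ero1b). Signals became log2(signal + 16), so folds of dim genes are understated. No filter and no detection calls were used, and the number of arrays limits the precision.

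The fits used limma 3.58.1 in R 4.3.3 (lmFit, eBayes with trend, two-sided), with the array set as a block; further fits gave the 4-array set alone, the set difference and the interaction, where the single Dox(+) and Dox(-) arrays of the 2-array set are taken to vary as much as the rest. The scripts were tested on simulated data. The members, lists, array-set block, tests and alternatives were chosen with earlier results of these data known. Described by array were the 4 sensor-pathway genes, Hspa5, Calr, Pdia4 and members with an unadjusted p under 0.05 with the block, and of each other list the 2 genes with the smallest p; the text names the remaining members more briefly, and other genes singled out were picked with their values in view. Sec61g, Srp54a and Igkc were not matched to a single-symbol probe set and are not analysed here, and some other listed genes are not reported here.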

Additional observations from a re-analysis of the deposited data

How the results depend on the processing

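With the array-set block, 0 members were called in each direction, and this held without the block, with quantile normalization, median centring, no mean-variance trend, a robust prior, genes under the 40th percentile left out, the mean of all probe sets, no _s_at, _x_at or _a_at probe sets, pseudocounts of 1 and 64 and an adjusted p under 0.10. Leaving out 1 array gave 0 to 1 members called higher: Ero1a passed (log2 difference 0.60, limma adjusted p 0.031 and 0.032) without either array of the 2-array set, where the block absorbs the remaining array. Over all genes the blocked fit called 36 genes, and 0 to 130 under the alternatives: 0 without the block (470 at an unadjusted p under 0.05), without the trend, without Dox(-) replicate 3 or without Dox(+) replicate 2. In the 4-array set, where Ero1a alone was called among 75 genes (0 to 397 under the alternatives), 0 members were called higher without the trend, with the mean of all probe sets or with a pseudocount of 64. There were 2 (Ero1a and Edem1) with genes under the 40th percentile left out or an adjusted p under 0.10. Leaving out an array of this set left 1 array in a group, so those fits cannot show whether a call holds. The interaction called 1 member higher (Ern1) with genes under the 40th percentile left out, where 30 genes passed in all against 0, and without the trend 8 members were higher and 7 lower in the 4-array set, against 12 and 13. Median centring gave 8 and 16. Why calls were lost was not tested. The median difference of the members was positive in every setting of the blocked fit (0.05 to 0.09). Of the 12 genes followed, 8 kept their sign in all settings; Ern1 and Xbp1 turned positive without the 2-array set's arrays, Atf6 turned negative without replicate 2 of either group, and Pdia4 with the mean of all probe sets (-0.05), none of them called. The log2 difference of Fkbp11 ran from 0.23 to 1.77.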

Other observations

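Genes of the ER outside the 36 also differed between the array sets, as values chosen after they were seen. Erlec1, an ER lectin of the ERAD path, had signals of 2636 to 3202 in the 4-array set, against 1031 and 1164 in the 2-array set (log2 difference 1.44, limma adjusted p 3.5e-06). Srprb, the membrane subunit of the signal recognition particle receptor, had 288 to 409 in the 4-array set, against 756 and 835 in the 2-array set (-1.22, limma adjusted p 1.7e-04). Txndc5, a disulfide isomerase, was at -0.94 and Selenok, a selenoprotein of the ERAD path, at 0.92. With doxycycline none of these 4 passed.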
